A study of Callithrix jacchus with 5 samples.

Results

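The levels of transcripts in 1 library of induced pluripotent stem (iPS) cells were set against those in 1 library of fibroblasts of the common marmoset (Callithrix jacchus), a New World monkey. These are 2 of the 5 RNA sequencing libraries of the study, and all 12174 of 30811 gene identifiers that reached 5 CPM (counts per 1000000 scaled counts) in at least 1 of the pair were described. The fibroblast library carries the P number 1 in its title. The iPS library carries no P number and comes, per the series title, from cells made by delivering reprogramming factors as RNA. The labels do not say whether the sequenced fibroblasts were the parents of the sequenced iPS cells. The other 3 libraries are of embryonic stem (ES) cells, 1 each from lines 1, 2 and 3 with P numbers 63, 17 and 45, and serve here as a second pluripotent state to read each level against. Genotype, donor age, culture medium and the reprogramming factors are not given in the labels used here, and 1 iPS library stands for however many clones it holds.

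Fibroblasts are connective tissue cells that secrete and remodel collagen-rich matrix, pull on it with actin stress fibres and keep a record of their position in the body in the HOX genes they express. Reprogramming converts such cells into epithelial, self-renewing cells run by a network around the transcription factors POU5F1 (OCT4), SOX2 and NANOG. Known steps of the conversion are the loss of mesenchymal adhesion and matrix genes, the gain of E-cadherin and other epithelial genes, and the late activation of the endogenous pluripotency network together with the de novo DNA methyltransferases.

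Depth differed widely between the libraries, with 58601185 counts in the fibroblast library, 5746449 in the iPS library and 34111715 to 46523012 in the ES lines. A count of 3, taken as the detection floor, was worth 0.063 CPM in fibroblasts and 0.507 CPM in iPS cells after scaling, so genes that are off in fibroblasts can be bounded 8.05 times more tightly than genes that are off in iPS cells. A gene was called higher or lower when the whole 95% exact (Clopper-Pearson) counting interval of the iPS to fibroblast ratio lay past 4-fold, and level when the whole interval lay within 2-fold. Genes that met neither rule are called between. Each group is 1 library, so no difference has a replicate check and no test was made: the intervals and floors cover counting error only, and reads were counted without molecular identifiers. Even counts were more frequent than odd ones among genes with 1 to 20 counts, at 70.0% of 5333 genes in the iPS library and 56.9% of 5090 in the fibroblast library. The counts may therefore not all be independent fragments, and the intervals may be too narrow. Intervals from halved counts, chosen after seeing the data, gave 1319 higher, 999 lower and 4510 level genes. In RNA from bulk cells, fewer cells of a type and less RNA per cell cannot be told apart.

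Both labels were checked against markers of the named cell type. Of the iPS markers, POU5F1, NANOG, SOX2, LIN28A, SALL4, CDH1 and EPCAM were each called higher in the iPS library, and TDGF1 had no match in the gene name table. Of the fibroblast markers, COL1A1, COL1A2, COL3A1, VIM, DCN, PDGFRA, PDGFRB and FN1 were all below their fibroblast level in the iPS library, 7 of them called lower and PDGFRB between. LUM and THY1 had no match. Lists for other cell types were summed in both libraries. In fibroblasts melanocyte and Schwann cell genes summed to 14.5 CPM over 10 matched genes, blood and macrophage genes to 50.04 CPM over 5, keratinocyte genes to 1.15 CPM over 4, muscle and pericyte genes to 311 CPM over 10, adipocyte and chondrocyte genes to 11.9 CPM over 5, and endothelial genes to 199 CPM over 11. FLT1 and ENG gave 89.7 and 101 CPM of the last, and PECAM1 and CDH5, which define endothelium, 1.07 and 0.126. PTPRC, which defines blood cells, was at 0.084 CPM in fibroblasts and at 0 in iPS cells, and KRT14, of keratinocytes, at 0 in both. In the iPS library the same lists summed to 246, 35.3, 5.58, 107, 9.30 and 455 CPM, with ERBB3 (171 CPM), PECAM1 (145 CPM), FLT1 (193 CPM) and KDR (70.98 CPM) among the main contributors. The ES lines carried these genes as well, at 233 to 274 CPM, 193 to 288 CPM, 189 to 363 CPM and 85.2 to 90.8 CPM. Their part in the results was not tested. Below, a pair of levels given as 1 CPM value against another is the fibroblast level first and the iPS level second.

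Across all measured genes, 1393 were called higher in the iPS library (11.4% of those measured) and 1146 lower (9.41%), while 5035 were level (41.4%) and 4600 lay between. Of the higher genes 829 (6.81% of all measured) were on in iPS cells and under 1 CPM in fibroblasts, and of the lower genes 243 (2%) were on in fibroblasts and under 1 CPM in iPS cells. Of the higher genes 59.5% were on against a fibroblast level under 1 CPM, and of the lower genes 21.2% had an iPS level under 1 CPM, where the shallower library sets a coarser floor. The median higher gene went from 0.63 CPM in fibroblasts to 20.6 CPM in iPS cells, and the median lower gene from 72.8 to 5.07 CPM. The whole interval lay past 100-fold for 209 higher and 26 lower genes. The median log2 ratio of all measured genes was -0.15.

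**Figure D1:**
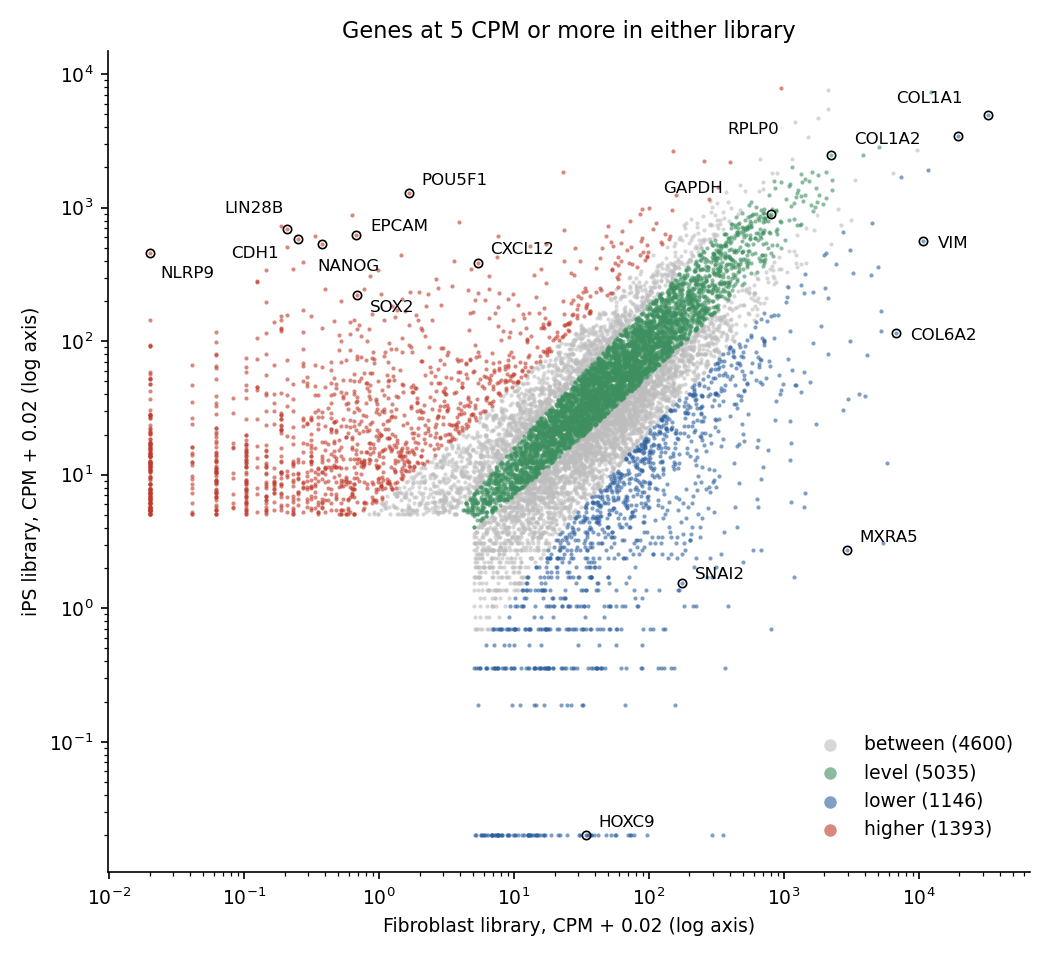
Each point is 1 of the 12174 measured genes, with its level in the fibroblast library on the horizontal axis and in the iPS library on the vertical axis, both in CPM on log axes. Colours give the call from the 95% counting interval. The labelled pluripotency and epithelial genes sit at the upper left under 2 CPM in fibroblasts, and the labelled collagens and VIM at the right below the level band. Genes with no iPS count, such as HOXC9, lie along the bottom edge.

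These calls describe a pair of libraries and not populations of cells. The 3 ES lines, the only group with more than 1 library, differed among themselves by a median of 1.59-fold per gene. Ratios were larger than that gene's range over the ES lines for 1363 of the 1393 higher genes and 1140 of the 1146 lower genes. The called genes were picked for ratios past 4-fold, so this follows largely from the selection, and 1480 of the 5035 level genes were past that range too. The range was taken on CPM plus 0.5, which narrows it for low genes. When the interval was widened by the spread of the ES lines (common coefficient of variation 0.456), 906 genes were still called higher and 414 lower, and none could be called level. Ratios were lower for longer genes: the median log2 ratio ran from 0.39 in the shortest eighth of genes by summed exon length to -0.54 in the longest, and the share called lower from 5.26% to 15.1%. The part of gene length in any single ratio was not tested, and ratios centred on genes of like length gave 1391 higher and 1123 lower genes. With total counts in place of TMM scaling the median ratio of all genes moved by 0.34 and the split became 1623 higher to 876 lower, with upper-quartile factors it moved by 0.30 (1625 to 905), and with TMM factors from the pair alone by -0.10 (1257 to 1250).

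The 58 gene lists spread widely along this axis. At the top stood the core pluripotency regulators, germ cell genes and epithelial genes, at the bottom the HOX genes, collagens, integrins, IGF axis genes, growth factor receptors of mesenchyme and interferon response genes, and in the middle, with most members level, the machinery of the ribosome, proteasome, splicing, DNA replication, mitosis and respiration. The lists were chosen with earlier results of these data known, so their order is a description. The counts of members given below stand beside 11.4% higher, 9.41% lower and 41.4% level among all measured genes. A member that passed the 5 CPM filter through a single library could lie in a single direction only.

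**Figure D2:**
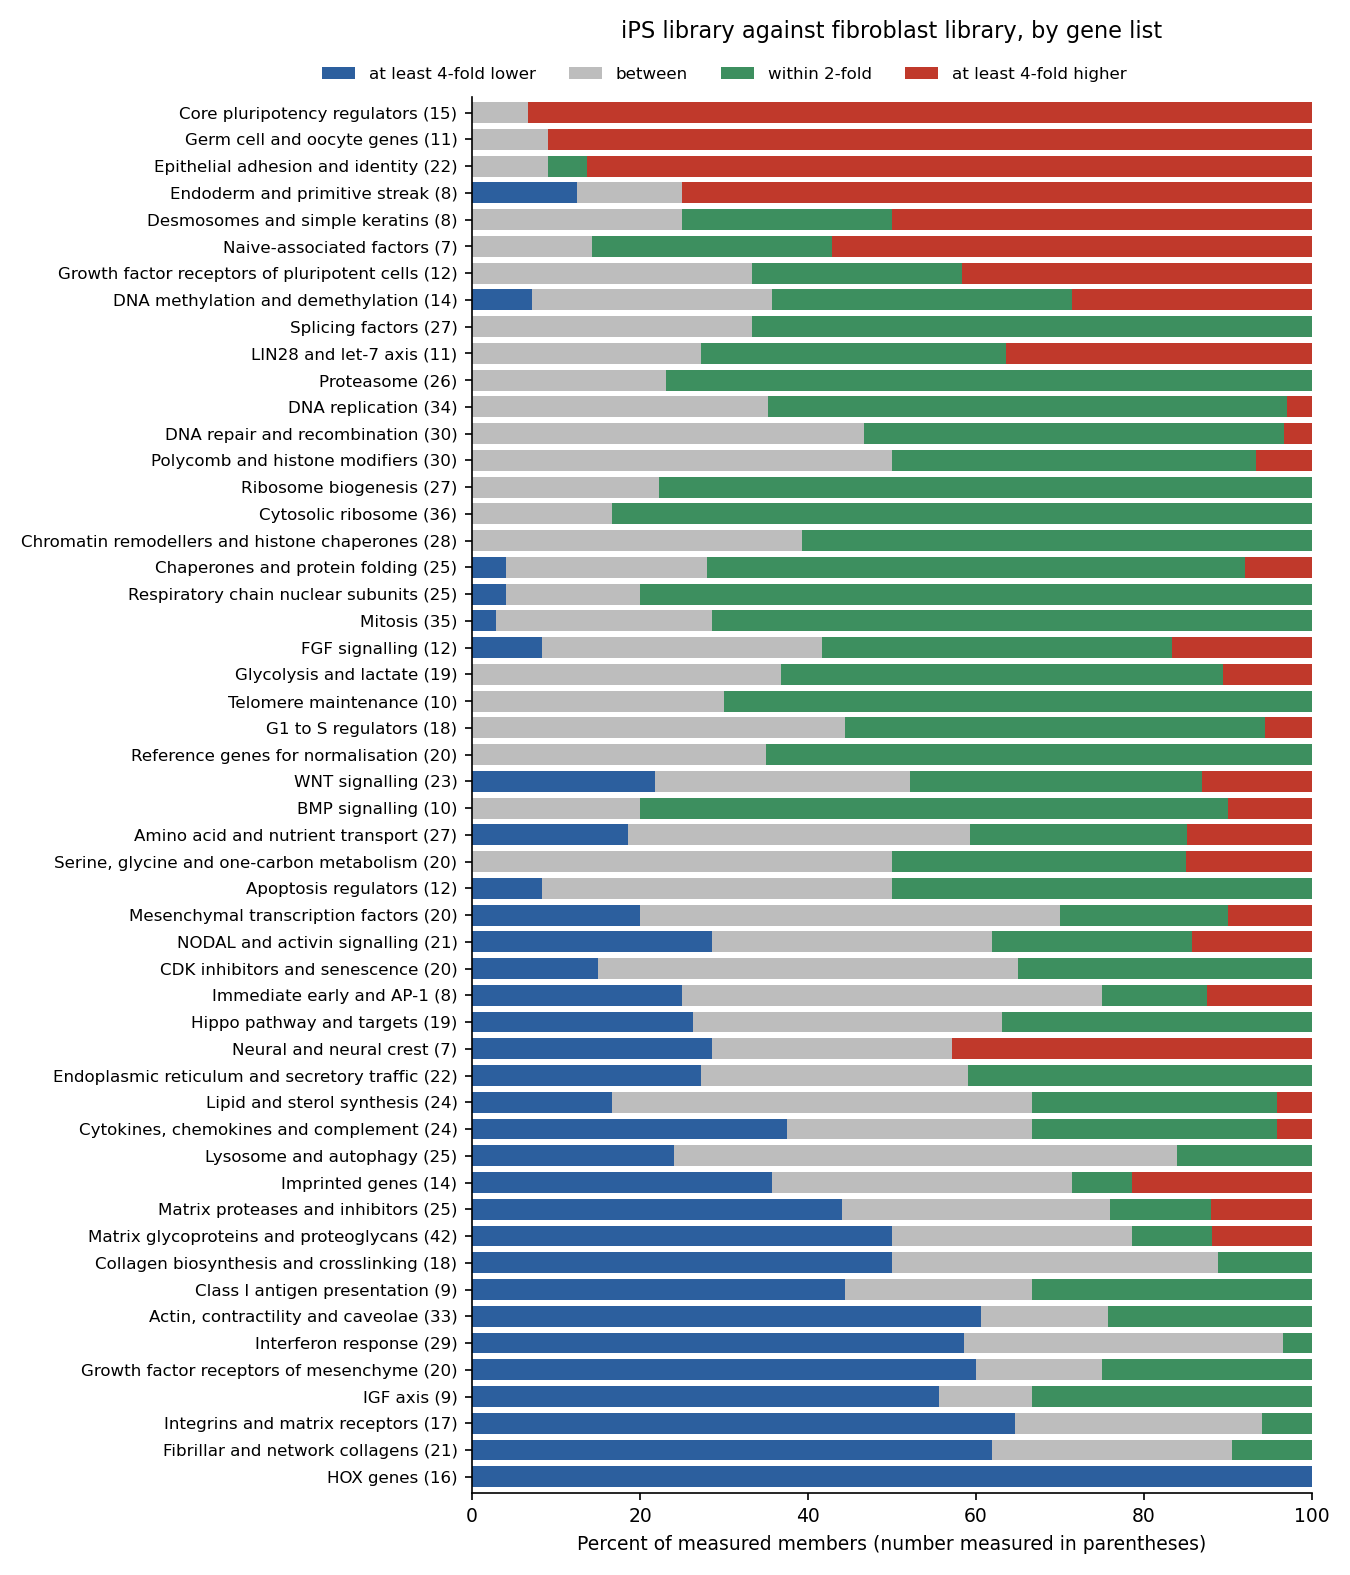
Each bar is 1 gene list with at least 7 measured members, divided into the percent of members called at least 4-fold lower (blue), between (grey), within 2-fold (green) and at least 4-fold higher (red) in the iPS library. Lists are ordered by their median log2 ratio, from core pluripotency regulators, with 14 of 15 members higher, to HOX genes, with 16 of 16 lower.

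Nearly the whole pluripotency network was higher in iPS cells. Of 25 core regulators 15 matched an identifier and all 15 were measured: 14 were called higher, 13 of them also with the widened interval, and the median log2 ratio was 8.47 against -0.15 for all genes. Of these, 13 passed the 5 CPM filter through the iPS library alone, which fixes their direction. POU5F1, which anchors the network, gave 78 counts in fibroblasts and 7609 in iPS cells, or 1.64 CPM in fibroblasts and 1286 CPM in iPS cells, a log2 ratio of 9.62 with an interval of 9.30 to 9.96 and 785-fold. ES lines 1, 2 and 3 gave 1409.6, 1732 and 1132 CPM, so the iPS level lay inside their range and the fibroblast level far under it. POU5F1 has processed pseudogenes, and its gene model here (ENSCJAG00000019789, chromosome 4, 31626192 to 31822630, minus strand; genome build not given in the sources used here) is far longer than this compact gene is known to be, so it may include reads of neighbours.

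NANOG (ENSCJAG00000018999, chromosome 9, 20166985 to 20173162), the homeobox factor that stabilises self-renewal, stood at 0.357 CPM in fibroblasts and 539 CPM in iPS cells with 462, 561 and 523 CPM in the ES lines (log2 ratio 10.56 with an interval of 9.88 to 11.34). SOX2, the partner of POU5F1 on composite DNA sites, stood at 0.672 CPM in fibroblasts and 221 CPM in iPS cells (log2 ratio 8.36). SALL4, a zinc finger protein of the same network, was at 0.168 against 118 CPM and PRDM14, a repressor of differentiation genes, at 0.294 against 155 CPM. All 4 were under 1 CPM in fibroblasts and within the range of the ES lines in iPS cells. UTF1 (0.105 against 106 CPM), ZSCAN10 (0.357 against 126 CPM), DPPA2 (0.042 against 22.5 CPM) and the epiblast factor ZIC2 (2.62 against 290.2 CPM) were also called higher. SALL3 and OTX2 had no count in fibroblasts and were at least 330.0-fold and 169-fold higher in iPS cells. TFAP2C was already present in fibroblasts, at 9.93 CPM, and reached 56.96 CPM. SALL1, at 6.47 against 11.8 CPM, was the member that lay between.

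KLF4 and MYC, known reprogramming factors, were already expressed in fibroblasts. KLF4, a zinc finger factor of epithelia and naive pluripotency, stood at 58.7 CPM in fibroblasts and 255 CPM in iPS cells, with 265, 175 and 17.9 CPM in the ES lines (log2 ratio 2.12 with an interval of 2.03 to 2.21). MYC, a growth regulator, was level at 157 against 90.1 CPM (log2 ratio -0.80), with 183 to 339 CPM in the ES lines, all above the iPS library. Of the 7 measured genes in the list of naive-associated factors, 4 were called higher (KLF4, NR5A2, KLF17 and TFAP2A), 2 level and TBX3 lay between. A further 5 members were under 5 CPM in both libraries. With the widened interval 3 were called higher and KLF4 was not. Of the 7, 3 passed that filter through the iPS library alone, which fixes their direction. NR5A2, a nuclear receptor that binds the POU5F1 promoter, was at 0.042 against 80.6 CPM, and KLF17, a factor of the early human embryo, at 0 against 23.5 CPM. TFAP2A, counted in this list, is an AP-2 factor of surface ectoderm, trophoblast and neural crest and not a marker of naive pluripotency. It stood at 1.97 CPM in fibroblasts and 235 CPM in iPS cells, but at only 3.61 to 10.98 CPM in the ES lines.

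LIN28A and LIN28B, RNA-binding proteins that block the maturation of let-7 microRNAs, showed some of the largest ratios of any gene. LIN28B (ENSCJAG00000001671, chromosome 4, 104315656 to 104463606) gave 9 counts in fibroblasts and 4065 in iPS cells, or 0.189 CPM in fibroblasts and 687 CPM in iPS cells (log2 ratio 11.83 with an interval of 10.90 to 12.96). LIN28A stood at 0.126 CPM in fibroblasts and 339 CPM in iPS cells (log2 ratio 11.39). TRIM71, a let-7 target of early embryos, was at 0.168 against 125 CPM, and ARID3B, a DNA-binding protein, at 1.18 against 96.8 CPM. These 4 were called higher and were at 1.18 CPM or less in fibroblasts. They passed the 5 CPM filter through the iPS library alone, which fixes their direction. The other let-7 targets and processing enzymes were already on in fibroblasts: IGF2BP1 stood at 51.4 against 129.6 CPM, IGF2BP3 at 83.2 against 119 CPM, TUT4 at 76.04 against 78.9 CPM and DIS3L2 at 34.9 against 50.7 CPM. HMGA2 (28.2 against 11.8 CPM) and IGF2BP2 (303 against 85.2 CPM) were lower in iPS cells without reaching the 4-fold rule.

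Epithelial genes were the other broad gain. Of 22 measured genes for epithelial adhesion and identity (23 matched of 31), 19 were called higher, 18 with the widened interval, none was lower, and the median log2 ratio was 7.29. Here 19 of the 22 passed the filter through the iPS library alone, which fixes their direction. CDH1 (ENSCJAG00000015504, chromosome 20, 22558638 to 22656245), which encodes the junctional adhesion protein E-cadherin, gave 11 counts in fibroblasts and 3426 in iPS cells, or 0.231 CPM in fibroblasts and 579 CPM in iPS cells, with 817, 527 and 212 CPM in the ES lines (log2 ratio 11.29 with an interval of 10.45 to 12.30). EPCAM, a second epithelial adhesion protein, stood at 0.651 CPM in fibroblasts and 625 CPM in iPS cells (log2 ratio 9.91). The fibroblast library was under 1 CPM for both, and the iPS level lay within the ES range for both.

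Tight junction claudins followed, with CLDN7 at 0.147 against 139 CPM, CLDN3 at 0.126 against 79.9 CPM and CLDN4 at 1.07 against 76.9 CPM. ESRP1, the splicing regulator that sets epithelial isoforms, was at 0.252 against 172 CPM, and GRHL2 and OVOL2, transcription factors that keep the epithelial state, at 0.357 against 63.7 CPM and 0 against 11.5 CPM. The serine proteases and inhibitors of epithelial surfaces, ST14 (0.105 against 73.7 CPM), PRSS8 (0.126 against 8.45 CPM) and SPINT2 (0.168 against 153 CPM), were likewise near 0 in fibroblasts. Of the 3 epithelial genes not called higher, 1 was level and 2 lay between. Of 8 measured desmosome and keratin genes 4 were called higher and 2 level, and 2 were called higher with the widened interval. DSP, the desmosome plakin, was at 52.5 against 553 CPM, DSG2, a desmosomal cadherin, at 18.1 against 139 CPM and PKP2, a desmosomal plaque protein, at 5.96 against 54.4 CPM, all on in fibroblasts. EVPL, envoplakin, was the exception among the 4, at 0.126 against 7.94 CPM.

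Chromatin genes gave mixed calls. Among 14 genes of DNA methylation, 4 were called higher, 1 lower and 5 level. With the widened interval 2 were called higher and 1 lower. DNMT3B, the de novo methyltransferase of early embryos, had 22.95 CPM in fibroblasts and 1837 CPM in iPS cells and 2984, 1984 and 711 CPM in the ES lines (log2 ratio 6.32 with an interval of 6.23 to 6.41). Its partner DNMT3A was at 36.7 against 168 CPM, TET1, which oxidises methylcytosine, at 12.9 against 162 CPM, and HELLS, a remodeller needed for methylation, at 87.7 against 562 CPM. The maintenance methyltransferase DNMT1 went the other way, at 279.8 CPM in fibroblasts and 10.99 CPM in iPS cells (log2 ratio -4.67 with an interval of -5.05 to -4.32), with 28.7 to 73.03 CPM in the ES lines. UHRF1, which recruits DNMT1 to replicated DNA, was level at 281 against 178 CPM. DNMT1 was below its fibroblast level in all 4 pluripotent libraries and lowest in the iPS library, and DNMT3B was above its fibroblast level in all 4.

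In the list of Polycomb and histone modifiers, 13 of 30 measured genes were level (43.3%, against 41.4% of all measured genes). Of the rest, 15 lay between and 2 were called higher, and the median log2 ratio was 0.43. Those 2 were accessory subunits of the Polycomb repressive complex PRC2: JARID2 at 28.2 CPM in fibroblasts and 496 CPM in iPS cells (log2 ratio 4.14) and MTF2 at 27.1 against 156 CPM. The catalytic subunit EZH2 stood at 55.3 against 212 CPM and the core subunits SUZ12 and EED at 99.7 against 105 CPM and 37.7 against 51.2 CPM. EZH1, the alternative catalytic subunit of differentiated cells, was at 51.5 against 16.2 CPM, and PHF19 at 59.8 against 13.5 CPM. Thus within this complex JARID2 differed 17.6-fold while SUZ12 was level. Of 28 chromatin remodellers and histone chaperones, 17 were level and none was called higher or lower.

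In the NODAL and activin pathway, which maintains primate pluripotency, ligands of the TGF-beta superfamily changed over. NODAL, the embryonic ligand, stood at 0.084 CPM in fibroblasts and 58.5 CPM in iPS cells (log2 ratio 9.44), and GDF3, a related ligand of pluripotent cells, at 0.189 CPM in fibroblasts and 505 CPM in iPS cells (log2 ratio 11.38), with 185, 681 and 45.3 CPM in the ES lines. TGFB1 and TGFB2, the ligands of fibroblast activation, stood at 209 against 6.08 CPM and 125 against 2.54 CPM (log2 ratios -5.10 and -5.63), and their type II receptor TGFBR2 at 238 against 3.38 CPM (log2 ratio -6.14). The activin receptor ACVR2B was called higher at 1.302 against 12.2 CPM. The shared type I receptors and signal carriers were closer: ACVR1B was at 60.6 against 40.7 CPM, TGFBR1 at 59.95 against 43.4 CPM, SMAD2 at 62.98 against 30.8 CPM and SMAD4 at 81.8 against 93.1 CPM, while SMAD3 was at 62.7 against 17.2 CPM. Of 21 measured members 3 were called higher, 6 lower and 5 level, with a median of -0.73. These are 14.3%, 28.6% and 23.8%, against 11.4%, 9.41% and 41.4% of all measured genes. With the widened interval 2 were called higher and 3 lower. INHBA, which encodes an activin subunit, was at 149 against 318 CPM, above the 25.5 to 54.5 CPM of the ES lines.

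The BMP list was mostly level (7 of 10 measured), including the receptors BMPR2 (117 against 123 CPM) and ACVR1 (87.5 against 86.2 CPM), with the ligand BMP7 higher at 0.651 against 34.98 CPM. In FGF signalling, FGFR1, the main receptor of primed pluripotent cells, was level at 419 against 360.3 CPM, and FGFR2 was called higher at 1.26 against 54.9 CPM. ETV4, a target of this pathway, was called higher at 14.5 against 69.5 CPM, whereas ETV5 was at 125 against 63.5 CPM. That list held 2 higher, 1 lower and 5 level of 12, with a median of 0.03 that was -0.02 with TMM factors from the pair. The WNT list held 3 members called higher and 5 lower of 23 (13% and 21.7%, against 11.4% and 9.41% of all measured genes). Its median of -0.20 became 0.14 with total counts and 0.10 with upper-quartile factors. SFRP2, a secreted WNT antagonist, stood at 23.6 against 678 CPM and the receptor FZD5 at 3.21 against 82.8 CPM. WNT2, WNT11 and the R-spondin receptor LGR5 were near absent from iPS cells, at 369.8 against 0.338 CPM, 212 against 1.01 CPM and 157 against 0.169 CPM. PORCN, the acyltransferase that WNT ligands need for secretion, was at 10.7 CPM in fibroblasts and 187 CPM in iPS cells but at 6.31 to 10.98 CPM in the ES lines.

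Receptors for growth factors were described as a mesenchymal and a pluripotent list. None of 20 measured receptors of mesenchyme was above 0 on the log2 scale: 12 were called lower and 5 level, with a median of -2.62. With the widened interval 6 were called lower. Of the 20, 3 passed the 5 CPM filter through the fibroblast library alone, which fixes their direction. PDGFRA, the platelet-derived growth factor receptor that marks mesenchyme, stood at 1106 CPM in fibroblasts and 25.2 CPM in iPS cells (log2 ratio -5.46), and EGFR, the epidermal growth factor receptor, at 125 against 5.75 CPM. PDGFRB was less far apart, at 123 against 40.1 CPM, and lay between. NT5E (CD73) and ENG (CD105), surface markers of cultured stromal cells, were at 245 against 19.1 CPM and 101 against 8.45 CPM. On the pluripotent side, 5 of 12 receptors were called higher (4 with the widened interval) and none lower. Of the 12, 6 passed the 5 CPM filter through the iPS library alone, which fixes their direction. ERBB3 stood at 1.34 against 171 CPM, EPHA1 at 0.084 against 46.8 CPM, and GPR19 had no fibroblast count against 13.5 CPM. In the IGF axis 5 of 9 members were called lower, and 2 with the widened interval. IGF2, a fetal growth factor, was at 147 against 2.54 CPM, IGFBP6 at 159 against 3.04 CPM and the receptor IGF1R at 222 against 33.6 CPM, whereas IGFBP2 was level at 3867 against 2469 CPM.

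HOX genes specify position along the body axes. Of 39 symbols 22 matched, 16 were measured and 6 were under 5 CPM in both libraries. All 16 were called lower, and all 16 were under 1 CPM in iPS cells. Their counts over the whole list summed to 276 CPM in fibroblasts and 5.41 CPM in iPS cells, which is 1.96%. HOXC9 gave 1626 counts in fibroblasts and none in iPS cells, at least 67.3-fold lower, and HOXB13, a gene of the caudal body, gave 1050 and none, at least 43.5-fold lower. HOXB2 stood at 37.5 against 0.338 CPM, HOXD8 at 31.3 against 0.676 CPM and HOXB3 at 27.9 against 0.338 CPM. A HOX gene passed the 5 CPM filter only through fibroblasts, so the count over measured members could go in 1 direction only. The ES lines held 0.00262%, 0.00298% and 0.0153% of their counts in this list, and the iPS library 0.000557%. With the widened interval 9 of the 16 were called lower.

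Mesenchymal transcription factors direct the identity of connective tissue cells. Of 20 measured, 4 were called lower, 2 higher, 4 level and 10 between, with a median of -0.71. With the widened interval 3 were called lower and none higher. SNAI2, a repressor of E-cadherin, stood at 177 CPM in fibroblasts and 1.52 CPM in iPS cells (log2 ratio -6.86 with an interval of -7.99 to -5.94), 0.86% of its fibroblast level. PRRX2, a homeobox factor of limb and skin mesenchyme, was at 145 against 3.38 CPM, and CREB3L1, a membrane-bound activator of collagen genes, at 494 against 20.3 CPM. OSR1 was the fourth, at 84.1 against 15.2 CPM. Against these stood factors that were as high in iPS cells as in fibroblasts or higher. PRRX1, the paralogue of PRRX2, was at 174 CPM in fibroblasts and 389 CPM in iPS cells (log2 ratio 1.16 with an interval of 1.10 to 1.23). TBX15, a T-box factor of skin and limb mesenchyme, was level at 86.1 against 101 CPM, TCF4 at 378 against 435 CPM, and ZEB2, another E-cadherin repressor, was at 164 against 415 CPM. NFIA (25.8 against 139 CPM) and PAX3 (1.89 against 30.1 CPM) were the 2 called higher.

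The ES lines held these factors at much lower levels: PRRX1 at 31.04, 21.99 and 33.04 CPM, TBX15 at 2.15, 3.23 and 4.16 CPM, ZEB2 at 35.4, 31.3 and 56.9 CPM, NFIX at 11.6, 9.34 and 19.4 CPM against 268 CPM in iPS cells, and EBF1 at 4.55, 2.67 and 9.35 CPM against 126. Across all genes 233 (1.91% of those measured) had an iPS level whose whole 95% counting interval lay more than 4-fold above each of the 3 ES lines. Of the 20 mesenchymal transcription factors 11 did. As a share of all counts the list took 0.205% in fibroblasts, 0.23% in the iPS library and 0.0281% to 0.0462% in the ES lines. What part fibroblasts or other cells in the iPS culture have in these values was not tested. Where the iPS library held 224% of the fibroblast level of PRRX1 and 118% of that of TBX15, it held 1.96% of the summed HOX genes and, of single genes, 0.86% for SNAI2, 1.04% for DCN, 16.4% for FN1, 15.1% for COL1A1 and 22.9% for COL3A1. The medians were 13.7% for collagens, 15.1% for matrix receptors and 23.6% for matrix glycoproteins.

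**Figure D3:**
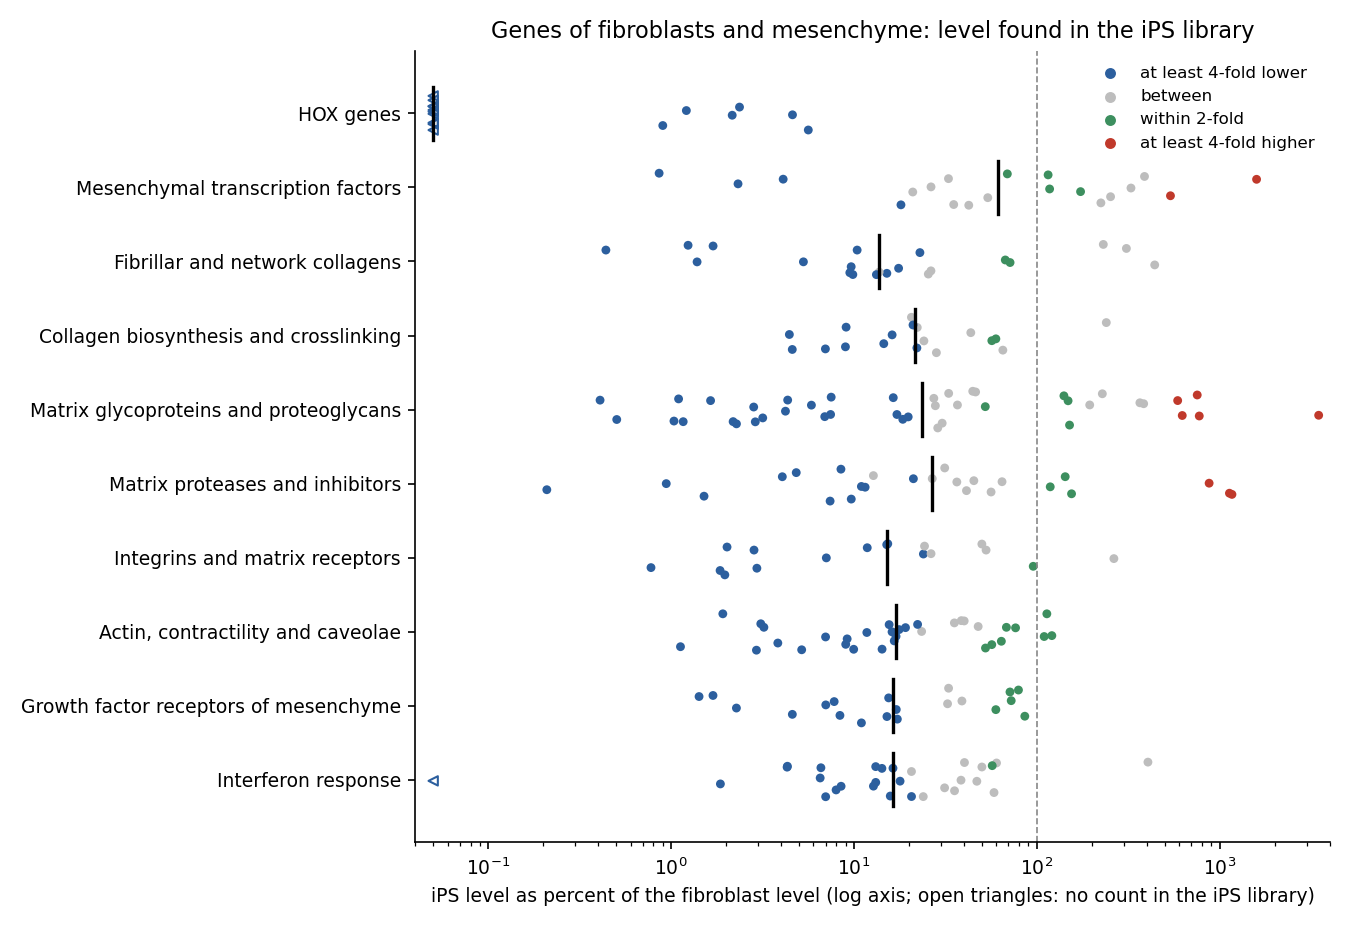
Each point is 1 measured gene of the named list, placed on a log axis by its iPS level as a percent of its fibroblast level, coloured by call; black ticks are list medians, triangles at the left edge have no iPS count and the dashed line marks equal levels. HOX genes lie at or under 5.63% while mesenchymal transcription factors spread from 0.86% to 1592% around a median of 61.5%.

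Collagens made up 6.53% of all fibroblast counts and 1.30% of iPS counts, against 0.328% to 0.55% in the ES lines. Of 21 measured genes in the list of fibrillar and network collagens, 13 were called lower, 2 were level and 6 lay between. The median was -2.86, and 6 were called lower with the widened interval. COL1A1, a chain of type I collagen and the gene with the highest fibroblast CPM of all measured, gave 1548588 and 29119 counts, or 32519 CPM in fibroblasts and 4921 CPM in iPS cells, with 1213, 518 and 854 CPM in the ES lines (log2 ratio -2.72 with an interval of -2.74 to -2.71). COL1A2, the other chain, stood at 19642 CPM in fibroblasts and 3447 CPM in iPS cells (log2 ratio -2.51) and COL3A1 at 7337 CPM in fibroblasts and 1684 CPM in iPS cells (log2 ratio -2.12). These levels were high in iPS cells in absolute terms, 15.1%, 17.5% and 22.9% of the fibroblast level. With the widened interval neither COL1A1 nor COL1A2 was called.

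Other collagens were reduced far more. COL6A2, a chain of the microfibrillar type VI collagen, stood at 6753 CPM in fibroblasts and 115 CPM in iPS cells (log2 ratio -5.88 with an interval of -5.99 to -5.77) and COL6A3 at 1149.7 against 60.8 CPM. COL5A1, a chain of type V collagen, was at 2988 against 37.01 CPM, or 1.24% of fibroblasts, while the second chain COL5A2 was at 3174 against 809.7 CPM, or 25.5%. COL14A1, which sits on the surface of collagen fibrils, was at 499 against 2.197 CPM. Thus COL5A1 and COL5A2 of type V collagen had unlike ratios. COL1A1 and COL1A2 of type I collagen were closer, with log2 ratios of -2.72 and -2.51. COL1A2, COL3A1, COL5A2 and COL12A1 (3263 against 322 CPM; ES lines 14.5 to 16.7 CPM) were the 4 of 21 that lay more than 4-fold above every ES line. The 3 collagens of this list above their fibroblast level, none of them called higher, were COL4A1, COL4A5 and COL10A1. COL4A1 and COL4A5, of basement membranes, were at 323 against 745 CPM and 22.3 against 68.8 CPM. COL10A1, of hypertrophic cartilage, was at 1.302 against 5.75 CPM. Among all 27 measured genes with COL symbols, 14 were called lower and 4 higher, with log2 ratios up to 5.97. The 4 higher genes were under 1 CPM in fibroblasts. They passed the 5 CPM filter through the iPS library alone, which fixes their direction. COL4A2, the usual partner of COL4A1, was level at 427 against 305 CPM, and the ES lines held 758 to 1698 CPM of COL4A1.

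Enzymes that build collagen leaned lower as well, with 9 of 18 measured called lower, none higher and a median of -2.21. With the widened interval 3 were called lower. The chaperone SERPINH1 (HSP47) stood at 2072 against 458 CPM, the lysyl hydroxylases PLOD2 and PLOD3 at 245 against 39.5 CPM and 397 against 27.7 CPM, the crosslinking oxidase LOXL1 at 468 against 68.1 CPM, and the procollagen proteinases PCOLCE and ADAMTS2, an enhancer and a peptidase, at 246 against 11.3 CPM and 141 against 6.25 CPM. P4HA1, a catalytic subunit of prolyl hydroxylase, was level at 247 against 140.1 CPM.

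Of 42 matrix glycoproteins and proteoglycans 21 were called lower, 5 higher and 4 level (median -2.10; 16 lower and 1 higher with the widened interval). FN1, fibronectin, stood at 11623 CPM in fibroblasts and 1907 CPM in iPS cells (log2 ratio -2.61), so it stayed abundant in iPS cells. THBS1, a glycoprotein, and VCAN, a proteoglycan, both of provisional matrix, were at 5281 against 167 CPM and 3629 against 39.9 CPM. DCN, a small proteoglycan that coats collagen fibrils, was at 636 CPM in fibroblasts and 6.59 CPM in iPS cells (log2 ratio -6.59 with an interval of -7.08 to -6.14). FBN2, a microfibril component, and TGFBI, an integrin ligand, were lowest, at 1441 against 7.27 CPM and 1405 against 5.75 CPM. The 5 called higher were NID2, a basement membrane linker, at 4.68 against 163 CPM, GPC3, a surface proteoglycan, at 17.9 against 135 CPM, FBLN1 at 29.8 against 186 CPM, MATN2 at 8.63 against 50.9 CPM and OGN at 1.62 against 12.5 CPM. LAMA1, the laminin chain of early embryos, was at 42.4 against 163 CPM, whereas LAMA2, the chain of muscle and connective tissue, was at 232 against 5.07 CPM. OGN, ASPN (56.2 against 84.8 CPM) and MFAP4 (11.7 against 22.8 CPM), genes of connective tissue, lay more than 4-fold above every ES line, where they were at 0.0278 to 0.183 CPM, 0.222 to 4.87 CPM and 0.167 to 1.67 CPM.

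Matrix turnover genes leaned lower: 11 of 25 proteases and inhibitors were called lower and 3 higher, with a median of -1.90. With the widened interval 6 were called lower and none higher. CTSK, a collagen-degrading cathepsin, was at 216 against 2.03 CPM and MMP14, a membrane collagenase, at 989 against 47.8 CPM. MMP2 lay between at 1236 against 388 CPM, and the plasminogen activators PLAT and PLAU were level at 177 against 273 CPM and 18.4 against 26.4 CPM. Among 17 matrix receptors 11 were called lower and none higher (median -2.73). With the widened interval 7 were called lower. CD44, the hyaluronan receptor, stood at 465 CPM in fibroblasts and 8.62 CPM in iPS cells (log2 ratio -5.75), ITGA11, a collagen-binding integrin, at 642 against 18.3 CPM, ITGA4 at 43.5 against 0.338 CPM and ITGB3 at 195 against 5.75 CPM. ITGB1, the shared beta subunit, was at 2741 against 657 CPM. ITGA6, the laminin-binding subunit used by pluripotent cells, had the highest ratio of this list, at 51.4 against 136 CPM. Among all 16 measured genes with ITG symbols, 9 were called lower and 2 higher, with log2 ratios up to 6.59. Of those 2, 1 was under 1 CPM in fibroblasts, so the filter fixed its direction.

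Contractile and cytoskeletal genes took 4.37% of fibroblast counts and 1.001% of iPS counts. Of 33 measured 20 were called lower, none higher and 8 level, with a median of -2.56 (10 lower with the widened interval). VIM (ENSCJAG00000008688, chromosome 7, 15003284 to 15012889), the intermediate filament protein vimentin, stood at 10812 CPM in fibroblasts and 559.9 CPM in iPS cells, with 429, 447 and 1240.0 CPM in the ES lines (log2 ratio -4.27 with an interval of -4.32 to -4.22). The stress fibre genes ACTA2, TAGLN and CNN1 were at 2733 against 30.8 CPM, 4123 against 79.1 CPM and 265 against 7.77 CPM. LMNA, the lamin of stiff tissues, was at 1216 against 46.6 CPM, and ANXA2, a calcium-dependent membrane protein, at 3109 against 100.1 CPM. Cytoplasmic actin and general components were closer, with ACTG1 at 3346 against 1599 CPM, MYL9 at 235 against 267 CPM and TAGLN2 at 426 against 467 CPM. ANKRD1, a target of the Hippo pathway effector YAP1, was at 293 against 1.69 CPM, the Hippo kinase LATS2 at 171 against 20.4 CPM and YAP1 itself at 116 against 47.3 CPM. The TEAD2 and TEAD4 partners of YAP1 were level at 30.8 against 30.9 CPM and 44.8 against 40.7 CPM.

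Genes of the interferon response were called lower in iPS cells in 17 of 29 measured, with none called higher and a median of -2.61. Of the 29, 11 passed the 5 CPM filter through the fibroblast library alone, which fixes their direction, and 1 through the iPS library alone. With the widened interval 3 were called lower. The signal carriers STAT2 and JAK1 stood at 61.7 against 8.11 CPM and 342 against 70.6 CPM, the RNA sensor IFIH1 at 41.7 against 3.55 CPM, and the receptor chain IFNAR1 at 97.8 against 12.5 CPM. TLR3, an endosomal sensor of RNA, had no iPS count against 9.01 CPM, at least 17.8-fold lower. IRF3 was at 78.5 against 44.8 CPM, and BST2, at 2.92 against 11.8 CPM, was the member on the higher side. Class I antigen presentation followed: B2M, the light chain, was at 401 against 89.9 CPM, the peptide-loading factor TAPBP at 107 against 2.54 CPM, and NLRC5, the transactivator of class I genes, had no iPS count against 14.8 CPM. Of the 9 measured class I genes, 3 passed the filter through the fibroblast library alone. CALR and PDIA3, general folding factors in that list, were level at 2062 against 1849 CPM and 1095 against 802 CPM.

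Cytokine and chemokine genes went both ways. CXCL14 stood at 1190.4 CPM in fibroblasts and 1.69 CPM in iPS cells (log2 ratio -9.46 with an interval of -10.52 to -8.58) and CXCL12, the ligand of CXCR4 made by stromal cells, at 5.35 CPM in fibroblasts and 388 CPM in iPS cells (log2 ratio 6.18 with an interval of 5.99 to 6.37), with 10.9, 14.1 and 5.53 CPM in the ES lines. CXCL12 was thus at least 4-fold higher in the iPS library than in any other library of the study, fibroblasts included. PTGS2, the inducible cyclooxygenase, was at 37.3 against 1.69 CPM and NFKB1, an inflammatory transcription factor, at 56.6 against 6.42 CPM. In all 9 of 24 were called lower, 1 higher and 7 level. With the widened interval 4 were called lower and 1 higher. Of the 24, 8 passed the 5 CPM filter through the fibroblast library alone and 1 through the iPS library alone, which fixes their direction.

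Some secretory and lysosomal genes were lower. Of 22 endoplasmic reticulum and transport genes 6 were called lower and 9 level (27.3% and 40.9%, against 9.41% and 41.4% of all measured genes). The median was -1.25, and with the widened interval 2 were called lower. SEC24D, a coat protein needed to export procollagen, was at 507 against 17.9 CPM, KDELR3 at 151 against 14.5 CPM, and the translocon subunit SEC61A1 at 555 against 249 CPM. COPZ2 stood at 47.1 against 0.338 CPM. Of 25 lysosome and autophagy genes 6 were called lower and 4 level, 15 lay between and the median was -1.71. With the widened interval 1 was called lower. CTSB, a lysosomal protease, was at 659 against 64.2 CPM and LAMP1, a lysosomal membrane protein, at 805 against 153 CPM.

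Few proliferation genes were called in either direction. In the list of DNA replication 21 of 34 measured genes were level and 1 was called higher, with a median of 0.46. The helicase subunits MCM2 and MCM7 stood at 281 against 312 CPM and 239 against 267 CPM and the clamp PCNA at 210.4 against 198 CPM. In mitosis 25 of 35 were level, with a median of 0.06 that was -0.04 with TMM factors from the pair alone: TOP2A was at 568 against 772 CPM, PLK1 at 119 against 151 CPM and TPX2 at 206 against 205 CPM. MKI67, a common marker of cycling cells, was higher in fibroblasts, at 848 against 389 CPM. The fibroblast library thus carried cell cycle transcripts at levels close to those of the iPS library. In the G1 to S list 9 of 18 were level and the median was -0.04, which was 0.30 with total counts and 0.26 with upper-quartile factors, and of 10 telomere genes 7 were level with none called, at a median of -0.02 that was 0.32 and 0.28 with those scalings.

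Single regulators of the cycle were called. RB1, the retinoblastoma protein that holds cells in G1, stood at 131 CPM in fibroblasts and 5.07 CPM in iPS cells (log2 ratio -4.69 with an interval of -5.26 to -4.17), below the 66.6, 37.4 and 72.8 CPM of the ES lines. CDKN2B, an inhibitor of CDK4 and CDK6, was at 26.5 against 0.338 CPM and its target kinase CDK4 at 314 against 145 CPM. CDC25B, a mitotic phosphatase, was at 125 against 3.38 CPM and was the 1 mitosis gene called lower, while E2F5 at 3.82 against 31.4 CPM was the 1 G1 to S gene called higher. CCNE1 and CDC25A, which drive entry into S phase, were at 24.9 against 76.2 CPM and 22.05 against 71.8 CPM. In the list of CDK inhibitors and senescence genes 3 of 20 were called lower and none higher (median -0.85). DNA repair genes leaned higher, with 15 of 30 level, 1 called higher and a median of 0.45: CHEK2, a checkpoint kinase, was at 24.7 against 134 CPM and PARP1, which marks broken DNA, at 286 against 1119.7 CPM.

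Metabolic lists differed in how many members were level, against 41.4% of all measured genes. Of 19 glycolysis genes 10 were level and 2 higher: the glucose transporter SLC2A3 at 36.9 against 219.9 CPM and ALDOC at 5.17 against 27.04 CPM. With the widened interval neither was called. GAPDH was at 810.3 against 896 CPM and PKM at 1721 against 1404 CPM, whereas PFKP and TPI1 were at 311 against 85.01 CPM and 539.9 against 162 CPM. The median of 0.01 changed sign with TMM factors from the pair (-0.09) and RLE factors (-0.01). Of 25 nuclear subunits of the respiratory chain 20 were level, with a median of 0.06 that was -0.04 with TMM factors from the pair and -0.38 after length centring. SDHA, the flavoprotein of complex II, was the 1 called lower, at 215 against 44.1 CPM, while the other subunits SDHB, SDHC and SDHD were level at 77.6 against 77.9 CPM, 169 against 119 CPM and 42.3 against 29.7 CPM.

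In serine, glycine and one-carbon metabolism 7 genes of 20 were level (35%, against 41.4% of all measured genes) and 3 were called higher (15%, against 11.4%). Among them GLDC, the glycine decarboxylase, stood at 2.73 CPM in fibroblasts and 250.0 CPM in iPS cells (log2 ratio 6.52 with an interval of 6.26 to 6.79) with 55.5 to 211 CPM in the ES lines and CBS, of homocysteine metabolism, at 6.15 against 71.7 CPM. PHGDH, the first enzyme of serine synthesis, was at 602 against 203 CPM. Amino acid transporters went both ways: SLC7A3, an arginine and lysine transporter, was at 7.62 against 615 CPM, SLC43A2 at 2.41 against 58.65 CPM and SLC7A8 at 284 against 19.8 CPM, with SLC3A2, the shared heavy chain, level at 345 against 363 CPM. That list held 4 higher, 5 lower and 7 level of 27. With the widened interval 3 were called higher and 2 lower. Lipid and sterol synthesis had a median of -1.44, with 4 of 24 called lower, 1 higher and 7 level, and 22 of 24 below 0. With the widened interval none was called higher or lower. Among the lower was CYP51A1 at 142 against 26.2 CPM, and HMGCS1 was level at 203 against 192 CPM.

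The machinery of gene expression was mostly level. None of 36 measured ribosomal protein genes was called in either direction and 30 were level, with a median of 0.37 that became -0.05 after centring on gene length. RPLP0 was at 2244 against 2498 CPM and RPL4 at 1531 against 1592 CPM. Ribosome biogenesis had 21 of 27 level, splicing factors 18 of 27 with a median of 0.62, and the proteasome 20 of 26 with a median of 0.54. Chaperones had 16 of 25 level and a median above 0. With the widened interval none was called higher and 1 lower. By the main rule there were 3 exceptions. HSP90AA1, the cytosolic chaperone, was the most abundant of them in iPS cells, at 949.6 CPM in fibroblasts and 7865 CPM in iPS cells (log2 ratio 3.05 with an interval of 3.03 to 3.07), HSPB1 was at 96.1 against 434 CPM, and CRYAB, a small heat shock protein of muscle and stromal cells, was at 26.4 against 0.169 CPM. Among 20 genes often used for normalisation 13 were level, none was called higher or lower and the median was -0.10, against 0.24 with total counts and 0.20 with upper-quartile factors: POLR2A stood at 395 against 376 CPM, YWHAZ at 1337 against 1226 CPM and REEP5, the farthest, at 150.2 against 33.1 CPM.

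Of 11 measured germ cell genes 10 were called higher, and 10 more were under 5 CPM in both libraries. With the widened interval 7 were called higher. Of the 11, 10 passed the 5 CPM filter through the iPS library alone, so they could lie in 1 direction only. DDX4, an RNA helicase of the germ line, PIWIL1 and MAEL, of the piRNA pathway, and STRA8, a meiotic gene, had no count in fibroblasts and stood at 26.5, 52.1, 47.5 and 13.9 CPM in iPS cells, at least 421, 826, 754 and 220.0-fold higher. Levels in the ES lines varied: DDX4 was at 1.097, 12.7 and 0.0457 CPM, PIWIL1 at 24.9, 46.1 and 0.823 CPM and MAEL at 10.8, 17.8 and 1.19 CPM in lines 1, 2 and 3. NLRP7, an oocyte gene, gave 8 and 4316 counts, or 0.168 CPM in fibroblasts and 729 CPM in iPS cells (log2 ratio 12.08 with an interval of 11.10 to 13.30), with 215, 769 and 6.77 CPM in the ES lines. NLRP9 had no fibroblast count against 2709 in iPS cells, at least 7268-fold higher, the largest ratio or bound of any measured gene. The NLRP genes have close paralogues, and the handling of reads that match several copies is not stated in those sources.

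Some genes of early lineages were on in iPS cells. TBXT, the primitive streak factor brachyury, stood at 0.042 against 38.7 CPM, with 10.97, 115 and 9.31 CPM in the ES lines, and CER1, a NODAL antagonist, at 0.042 against 5.41 CPM, with 23.8 to 393 CPM. GATA4 and HNF4A, endoderm factors, had no fibroblast count and 7.94 and 6.42 CPM in iPS cells. GATA6, which fibroblasts expressed, was lower at 37.6 against 4.73 CPM, with 16.4 to 89.8 CPM in the ES lines. In all 6 of 8 measured endoderm and streak genes were called higher, 6 passed the filter through the iPS library alone, and 8 more were under 5 CPM in both. Neural genes were mixed: of 7 measured, 3 were called higher, 2 lower and 2 between, and 11 further members were under 5 CPM in both. With the widened interval 1 was called higher and 1 lower. NES, an intermediate filament of progenitors, was called higher at 43.1 against 420.2 CPM. ELAVL3 and STMN2 were the other higher genes, at 0.357 against 10.48 CPM and 0.378 against 7.098 CPM. Both passed the filter through the iPS library alone, which fixes their direction. NCAM1 and MAP2, neural genes that fibroblasts also expressed here, were called lower at 264 against 15.04 CPM and 53.3 against 3.38 CPM. MAP2 passed the filter through the fibroblast library alone. TUBB3, also expressed by fibroblasts, was at 454 against 182 CPM.

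Imprinted genes went both ways, 3 higher, 5 lower and 1 level of 14 measured. With the widened interval 1 was called higher and 2 lower. PEG3, a zinc finger protein, stood at 89.04 against 977 CPM, SNRPN at 3.25 against 31.4 CPM and MEST at 93.6 against 406 CPM. PEG10, a retrotransposon-derived gene, was at 469 against 16.9 CPM, GRB10 at 237 against 47.3 CPM and IGF2R at 710.1 against 103 CPM. The ES lines held 614 to 965 CPM of PEG3 and 413 to 583 CPM of MEST. Total levels do not say which parental copy was read. Of 8 immediate early genes 1 was called higher, NR4A2, and 2 lower, KLF6 and FOSL1, and of 12 apoptosis regulators 6 were level and 1, APAF1, was lower.

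By size of the ratio alone, the leading genes named outside these lists were of varied function. MXRA5 (ENSCJAG00000013776, chromosome X, 1309332 to 1351391), a matrix remodelling protein, gave 140758 and 16 counts, or 2956 CPM in fibroblasts and 2.704 CPM in iPS cells (log2 ratio -10.09 with an interval of -10.90 to -9.39). TSPAN11, a tetraspanin, gave 13890 counts and none, at least 575-fold lower, and PRG4, the lubricant proteoglycan of joints, LRRC15, a surface protein of activated fibroblasts, and CCN4 each had no iPS count against 69.4, 73.7 and 72.9 CPM. MSTN, myostatin, was at 7286 and 2 counts. On the higher side PYY, a gut peptide, stood at 0.105 against 276 CPM with 189 to 311 CPM in the ES lines, and DDX43, an RNA helicase, at 0.21 against 345 CPM. BRINP3 was at 0.126 against 198 CPM but at only 1.58 to 6.14 CPM in the ES lines, so a large ratio to fibroblasts was not in every case shared by the other pluripotent cells.

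**Figure D4:**
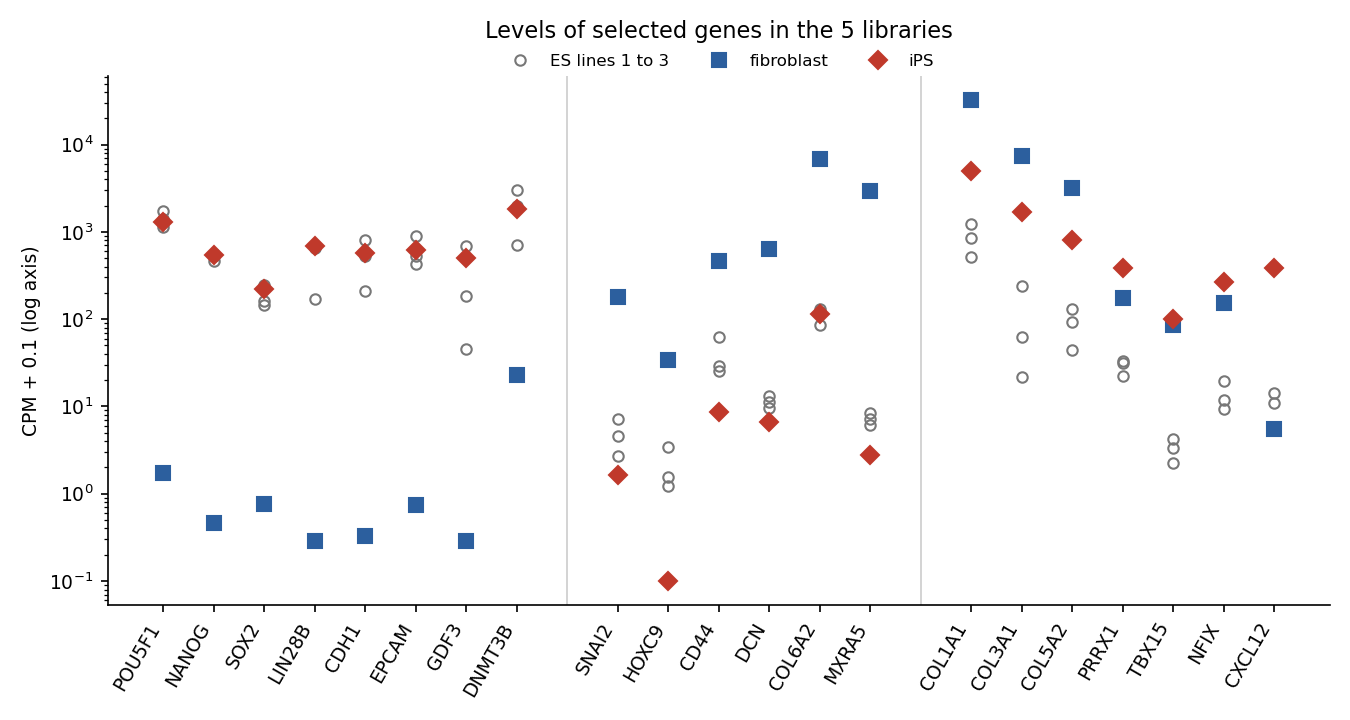
Levels of 21 genes in CPM plus 0.1 on a log axis, with the fibroblast library as squares, the iPS library as diamonds and the 3 ES lines as open circles. In the left block the iPS library lies with the ES lines far above fibroblasts, in the middle block it lies within or below their range and far under fibroblasts, and in the right block it lies above all 3 ES lines.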

How the data were processed

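Total RNA from 5 marmoset cell cultures was sequenced, and the fibroblast and iPS libraries were compared. The values deposited by the authors are raw counts of reads for each gene identifier. STAR 2.5.3a, featureCounts 1.5.2 and Trim Galore 0.4.0 appear in the submitters' processing notes without their settings. Sources used here do not state the build, the strand setting, or how read pairs, multi-mapping reads and overlaps were counted, so paralogues, overlapping and antisense genes are uncertain. Coordinates are those of the files, 1-based. Of 30811 identifiers 12660 (41.1%) matched a symbol, and 8993 of the 12174 measured did.

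TMM factors over all 5 libraries (0.813 for fibroblasts, 1.03 for iPS cells) were computed on 17462 genes with edgeR 4.0.16 and limma 3.58.1 in R 4.3.3, and edgeR gave the dispersion of the ES lines. Ratios and exact intervals were computed in Python 3.11.15 with numpy 2.4.6, scipy 1.17.1 and pandas 2.3.3, and figures with matplotlib 3.10.9. The interval code was tested on simulated data. CPM values are counts scaled to the TMM-adjusted total. Where 1 library had no count, the fold is a bound against 3 counts in that library. No p-value was computed, since each group is 1 library.

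Lists (58, with 1614 entries and 1562 symbols, of which 1160 matched) and 28 symbol families were described by counts and medians. The members and lists were chosen with earlier results of these data known. Genes named are the 15 with the largest near bound of the interval in each direction, up to 3 higher, 3 lower and 2 level members of each list, and 13 fixed markers, some of which are not reported here. Other members named were chosen after their values were seen, among them all genes named for their level beside the ES lines. Alternatives were other scalings, filters, confidence levels and fold thresholds, the spread of the ES lines, and 2 chosen after seeing the data: ratios centred on gene length and intervals from halved counts.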

Additional observations from a re-analysis of the deposited data

How the results depend on the processing

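No paired analysis was possible because each group is 1 library. Counts of genes moved by over 1.5 times in these cases, where the alternative itself tests more genes, fewer genes or a different bound. Higher genes numbered 2341 at a filter of 1 CPM, 2560 with no filter, 906 with the interval widened by the ES spread and 2274 at 2-fold. Lower genes numbered 414 with the ES spread, 567 at 8-fold and 2621 at 2-fold. Level genes numbered 0 with the ES spread and 2584 at 1.5-fold. Genes on in iPS cells only numbered 1777 at 1 CPM, 512 at 10 CPM and 1996 with no filter, and genes on in fibroblasts only 144 with the ES spread. With intervals from halved counts, which allow for both reads of a pair being counted, 1319 genes were higher, 999 lower and 4510 level. Another scaling shifts all log2 ratios alike, so genes near 0 change sign with it. Of 454 list medians under the alternatives, 432 stayed within 1.5-fold. In further lists the interval widened by the ES spread left 3 WNT genes higher and 3 lower, and 1 FGF gene higher and none lower. It left 1 Polycomb and histone modifier and 2 serine, glycine and one-carbon genes higher. Of the CDK inhibitors and senescence genes 2 stayed lower. No gene of DNA replication, DNA repair or the G1 to S list was called higher with it. The iPS depth limits what can be said of genes under 0.507 CPM there.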

Other observations

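Families defined by symbol alone, some of which share members with the lists, were read in the same way. Of 193 measured zinc finger genes with ZNF symbols 6 were called higher, 10 lower and 80 level (41.5%, against 41.4% of all measured genes), with a median log2 ratio of 0.07. Annexins had 3 of 8 lower (37.5%, against 9.41% of all measured genes) with none higher. Of 14 calcium channel subunits 7 were called higher and 1 lower (50% and 7.14%, against 11.4% and 9.41% of all measured genes). With the widened interval 3 were called higher. Of the 7 higher subunits 4 were under 1 CPM in fibroblasts. These 4 passed the 5 CPM filter through the iPS library alone, which fixes their direction. Mitochondrial ribosomal proteins had 38 of 50 level and none called, with a median of 0.17, and translation initiation factors 28 of 38 level with 1 lower.

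The 233 genes more than 4-fold above every ES line fell unevenly over the calls against fibroblasts: 163 were among the 1393 higher genes, 23 among the 5035 level, 41 among the 4600 between and 6 among the 1146 lower. Only 78 of them carry a symbol. Beyond the mesenchymal genes given above, they include genes above both fibroblasts and ES lines. RPS6KB1, a kinase of the mTOR pathway, stood at 50.04 CPM in fibroblasts and 732 CPM in iPS cells and at 41.7 to 52.3 CPM in the ES lines, and CASK, a membrane scaffold, at 45.1 against 498 CPM, with 71.4 to 100.4 CPM. DGAT2, of triglyceride synthesis, was at 1.26 against 63.2 CPM, with 0.457 to 4.78 CPM. HP, the plasma protein haptoglobin, gave 4 and 36 counts and none in the ES lines. Genes of connective tissue among them include S100A6 at 406 against 491 CPM, NFIB at 283 against 238 CPM and AEBP1 at 83.3 against 172 CPM, with 23.8 to 109 CPM, 16.6 to 36.95 CPM and 12.01 to 36.4 CPM in the ES lines. These genes were chosen after their values were seen.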
